A study of Mus musculus with 6 samples.

Results

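The genes described here encode the hypoxia-inducible factor (HIF) subunits and the enzymes that control them. They are the alpha subunit genes Hif1a, Epas1 and Hif3a, the partner subunit genes Arnt and Arnt2, the prolyl hydroxylase genes Egln1, Egln2 and Egln3, the von Hippel-Lindau gene Vhl, and Hif1an. They were chosen by symbol and are 10 of the 23282 genes in the deposited table. RNA came from primary hepatocytes of C57BL6/N mice, isolated by collagenase perfusion and plated. The 3 control samples received no treatment, and the other 3 were given recombinant IL-1β protein for 24 h. A time is listed for the IL-1β samples only, not for the controls. Neither group carries an engineered allele, and no dose, age, sex or oxygen level is given in the labels. The labels do not tie replicates to separate animals or cultures, so the p-values measure only the spread between these samples. The comparison asks how the inflammatory cytokine IL-1β, which activates NF-κB signalling in hepatocytes, changed the transcripts of this oxygen-sensing system.

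HIF is a pair of proteins, an alpha subunit that is destroyed when oxygen is present and a stable ARNT subunit. In oxygen, the prolyl hydroxylases (PHDs, encoded by the Egln genes) modify the alpha subunit, VHL binds the modified form, and an elongin and cullin ubiquitin ligase marks it for the proteasome, while the asparagine hydroxylase encoded by Hif1an blocks its contact with coactivators. HIF1α (Hif1a) is best known for glycolytic genes, and HIF2α (Epas1) for iron handling, lipid storage and erythropoietin. Since the control acts largely on protein, which was not measured here, the values below describe transcripts only.

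Sequencing used QuantSeq, an assay in which reads start near the poly(A) end of an mRNA. A transcript then gives about 1 read whatever its length, so levels in CPM, the TMM-normalised read count per gene on a common library size, were compared between genes without dividing by length. The libraries held 9538741 to 11105408 counts, at which 3 counts in a library, taken as the detection floor, correspond to 0.270 to 0.315 CPM. This floor covers counting error only. No pair of libraries in a group was a duplicate. As a check of the labelled cell type, the summed level of the hepatocyte markers, led by Alb, Fgb and Gc, was 30193 to 30964 CPM in controls and 24590 to 26407 CPM after IL-1β, with 6 of 8 tested markers lower and 0 higher. The hepatocyte genes Cps1 and Ass1, named here after their values were seen, averaged only 2.36 and 0.609 CPM. A gene near 0 in this table is therefore described as listed near 0, not as silent. Levels and ratios between genes assume that the reads of each gene were counted equally well, which was not tested. Summed Kupffer cell and macrophage markers were 248 to 279.9 CPM against 254 to 287 CPM (0 of 11 called, 3 higher at an unadjusted p below 0.05). The share of all tested genes at that unadjusted threshold was not calculated. Most of the Kupffer cell and macrophage sum was Cd68, at a mean of 188 CPM, while 8 of the 11 markers had a positive log2 fold change (median 0.31). Summed endothelial markers were 88.9 to 96.5 against 85.8 to 90.2 CPM (1 of 10 higher, 2 lower), and summed stellate cell markers 19.4 to 23.6 against 21.8 to 27.5 CPM (0 of 2 called). Summed cholangiocyte markers were 316 to 329 CPM in controls and 236 to 240 CPM after IL-1β, mostly Sox9 and Spp1, with Krt7 and Epcam near 0. Of these, Spp1 fell by 1.199 on the log2 scale, while Sox9 was at 128 to 138 CPM in controls and 148 to 158 CPM after IL-1β (log2 fold change 0.21, adjusted p = 0.052). Neutrophil markers summed to at most 0.56 CPM, with Mpo, Elane and Retnlg at 0. In bulk RNA, fewer cells of a type and less RNA per cell cannot be told apart.

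Of the 10 genes, 9 had enough counts to be tested. IL-1β raised 4 of them, Hif1a, Epas1, Arnt2 and Egln3, where 6.97% of the 11657 genes tested in the whole table rose (adjusted p below 0.05, edgeR). None of the 9 fell in edgeR at that threshold, where 6.44% of all tested genes fell. DESeq2 and limma called 0 of the 9 lower as well, against 639 of 13050 and 768 of 11657 genes. At an unadjusted p below 0.05 in edgeR none of the 9 fell either, but the share of all tested genes there was not calculated. The groups did not overlap, with IL-1β above control, in 5 of the 9, against 13.98% of all tested genes, and in 0 with IL-1β below control, against 14.17%. The median log2 fold change of the 9 was 0.42 (-0.0018 over all genes tested). Both tested alpha subunit genes rose, the ARNT and hydroxylase families each had 1 member that rose beside members that did not pass the test, and Vhl and Hif1an did not pass.

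**Figure D1:**
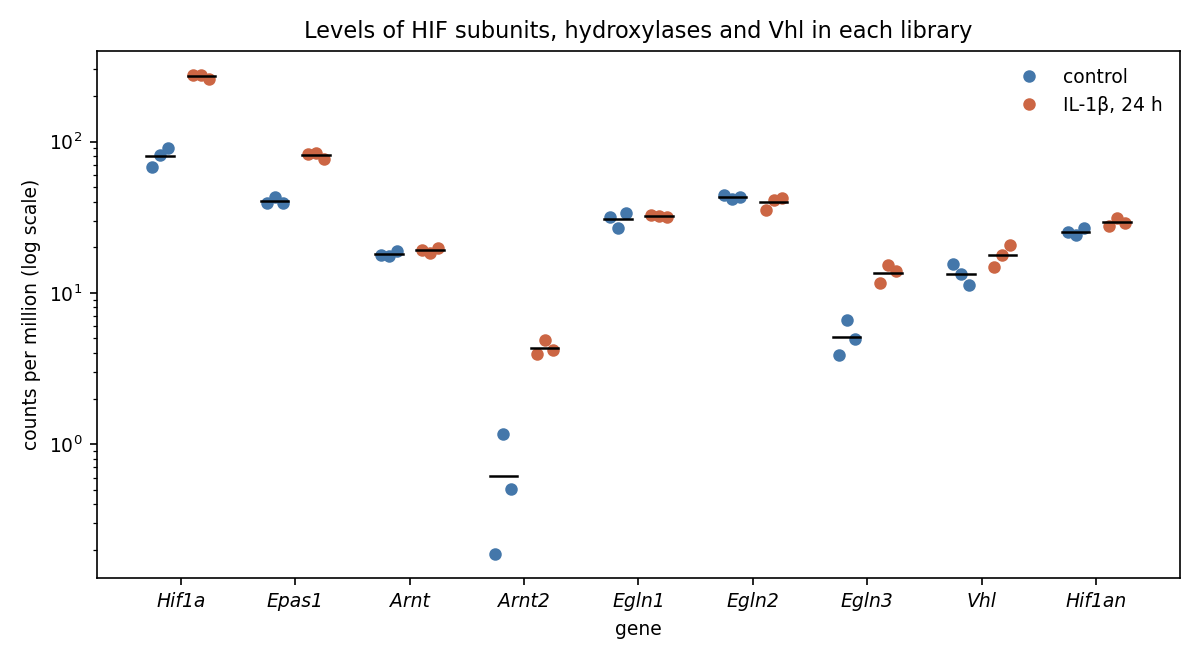
Level of each tested gene in CPM, on a log axis, with 1 point for each library (3 control, 3 IL-1β) and a black bar at the group mean. The IL-1β points of Hif1a, Epas1, Arnt2, Egln3 and Hif1an lie above all control points of the same gene; Hif3a, with 1 count in all, is not drawn.

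The promoters of 3 of the genes that rose are shown first, because Hif1a, Arnt2 and Egln3 rose together while their promoters differ in base composition and in matches to the HIF binding core. Each run holds the 250 bases before the RefSeq start on GRCm38.p6, written along the gene's own strand, at chr12:73907617-73907866 (plus) for Hif1a, chr12:54203875-54204124 (minus) for Egln3 and chr7:84410039-84410288 (minus) for Arnt2. Capitals mark ACGTG or GCGTG, the core of the hypoxia response element, on either strand.
Hif1a: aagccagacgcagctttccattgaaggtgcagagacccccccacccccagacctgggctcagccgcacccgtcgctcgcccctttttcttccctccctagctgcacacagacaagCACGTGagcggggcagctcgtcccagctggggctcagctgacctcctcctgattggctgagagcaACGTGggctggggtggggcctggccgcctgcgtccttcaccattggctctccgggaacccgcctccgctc
Egln3: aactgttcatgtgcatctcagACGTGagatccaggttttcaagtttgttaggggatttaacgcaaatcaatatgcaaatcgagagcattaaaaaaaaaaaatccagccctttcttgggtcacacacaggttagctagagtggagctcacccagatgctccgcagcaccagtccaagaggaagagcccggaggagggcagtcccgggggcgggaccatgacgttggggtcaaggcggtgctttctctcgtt
Arnt2: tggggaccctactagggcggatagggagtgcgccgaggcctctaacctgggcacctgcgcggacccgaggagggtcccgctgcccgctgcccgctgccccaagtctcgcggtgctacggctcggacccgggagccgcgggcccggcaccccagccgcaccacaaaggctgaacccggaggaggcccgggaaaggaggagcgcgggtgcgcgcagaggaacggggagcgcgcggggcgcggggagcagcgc
The Hif1a window held 3 matches at 2 places. The first place reads the same on both strands and so counts as 2 overlapping matches, 135 to 130 bases before the start, and the other lies 70 to 66 bases before it. Egln3 held 1 match, 229 to 225 bases before its start, and Arnt2 held 0. G and C made up 66.4% of the Hif1a window, 50.8% of the Egln3 window and 75.6% of the Arnt2 window. The core is short, and 38.6% of the 32851 RefSeq windows of this length held it. Among the 9 genes with an entry, Egln1, Egln2 and Arnt, none of which passed the test, held it too. So did Hif3a, which was not tested, while Vhl and Hif1an held 0. The kappa B motif, which NF-κB binds, was found in 0 of the 9 genes' windows and in 3.90% of all windows. These are matches of letters in a short window and say nothing of binding.

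The alpha subunit genes gave the clearest change. Hif1a (chr12:73907867-73947530 on GRCm38, plus strand) was read at 68.2, 81.6 and 91.2 CPM in the controls and at 275, 277 and 257 CPM after IL-1β. Every IL-1β library was far above every control, from means of 80.3 ± 11.5 to 269.7 ± 10.9 CPM (SD, n = 3 per group). The log2 fold change was 1.75 (standard error 0.086, 95% interval 1.57 to 1.93, adjusted p = 5.3e-14), a 3.36-fold rise. By adjusted p the gene stood 32nd of all genes tested, but by size of fold 100th of the 812 that rose. Hif1a thus passed from the 81.1 to the 95.6 percentile of tested genes by level. Control libraries varied by a coefficient of variation of 14.4%, where counting alone gives 3.43%, and the IL-1β libraries by 4.05%, where counting gives 1.91%.

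Epas1 (chr17:86753864-86833410, plus strand) rose as well, by a smaller factor. Its controls were at 39.1, 43.2 and 39.0 CPM and its IL-1β libraries at 82.9, 84.0 and 76.5 CPM. The lowest IL-1β library was well above the highest control. The log2 fold change was 1.00 (standard error 0.091, 95% interval 0.81 to 1.19, adjusted p = 7.3e-09). Epas1 is abundant in endothelial cells of many tissues, and their part in this rise was not tested. The endothelial marker sum was 88.9 to 96.5 CPM in controls and 85.8 to 90.2 CPM after IL-1β. Of the 10 endothelial markers tested, 4 had a positive log2 fold change, and the median was -0.41. The called ones moved both ways: Lyve1 rose (log2 fold change 0.45) while Kdr and Clec4g fell by 1.49 and 2.87 on the log2 scale. These 3 markers are named after their values were seen.

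Hif3a (chr7:17030993-17062427, minus strand), whose protein forms include inhibitors of the other alpha subunits, was listed at 0 counts in 5 libraries and at 1 count in IL-1β replicate 2. This is under the floor in each library, and no fold was formed.

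Set against each other within a library, where scaling plays no part, Hif1a gained on Epas1. Hif1a counts were 1.75, 1.89 and 2.34 times those of Epas1 in the controls and 3.33, 3.29 and 3.36 times after IL-1β. The 3 treated libraries lay almost on top of each other and above all controls. The log2 ratio rose by 0.75, from 0.98 ± 0.22 to 1.73 ± 0.014 (SD, n = 3 per group; exact two-sided permutation test, p = 0.1, the smallest that 3 against 3 allows). As a share of all alpha subunit counts, Hif1a went from 63.6%, 65.4% and 70.0% to 76.9%, 76.7% and 77.1%. The exact (Clopper-Pearson) 95% interval was 67.5% to 72.5% for the highest control and 75.3% to 78.0% for the lowest IL-1β library. These intervals, which cover counting error only, did not overlap. The IL-1β interval held the shares of all 3 treated libraries, so their closeness lay within counting error.

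**Figure D2:**
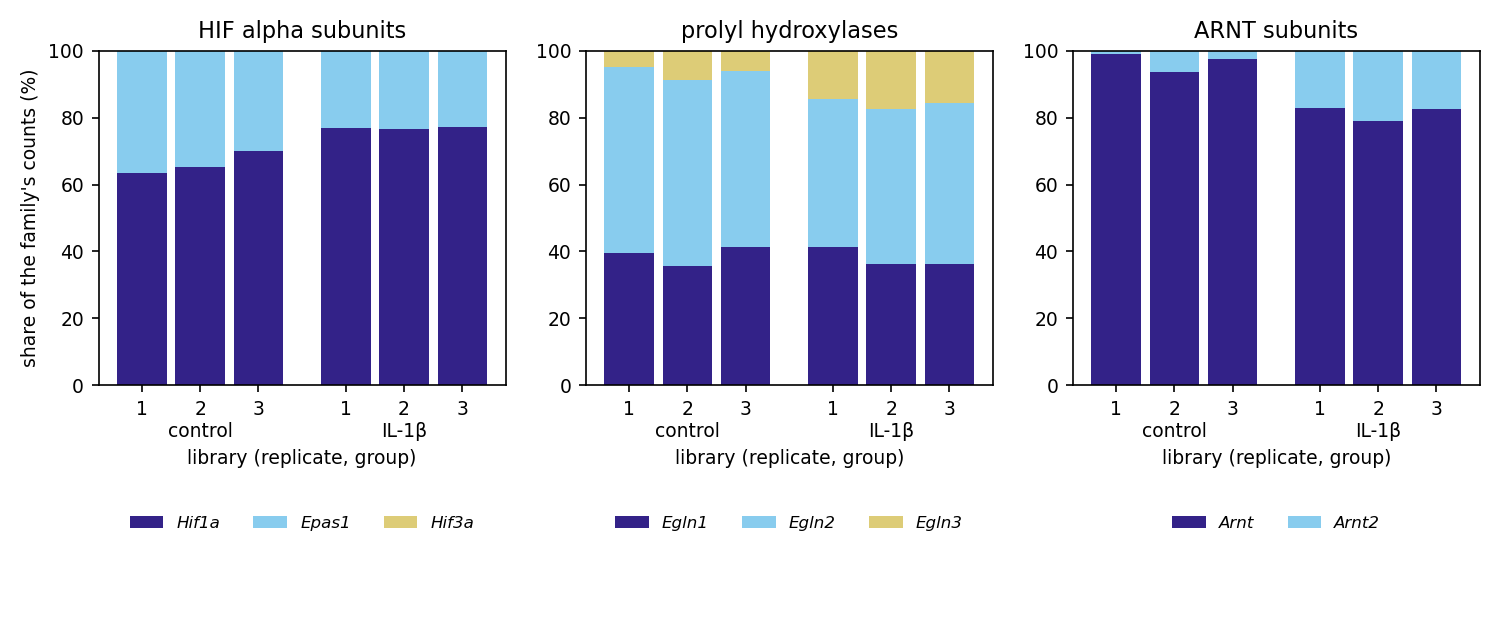
Share of each family's raw counts (%) taken by each gene in each library, as stacked bars that sum to 100, for the alpha subunits, the prolyl hydroxylases and the ARNT subunits. After IL-1β the shares of Hif1a, Egln3 and Arnt2 were higher in all 3 libraries than in any control; Hif3a is too small to see.

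The ARNT subunits behaved differently from each other. Arnt (chr3:95434390-95497239, plus strand), the general partner of all alpha subunits and of the dioxin receptor, was at 17.8, 17.5 and 18.9 CPM in the controls and 19.1, 18.4 and 19.9 CPM after IL-1β. The groups overlapped, and the log2 fold change of 0.08 did not pass the test (adjusted p = 0.789). Its 95% interval, -0.20 to 0.37, leaves room for a fall of 12.8% or a rise of 28.9%, well below the rise of either called alpha subunit.

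Arnt2 (chr7:84246275-84410038, minus strand), a close relative of Arnt best known from neurons, rose from a very low level. It had 2, 13 and 5 counts in the controls, or 0.188, 1.16 and 0.504 CPM, and 37, 51 and 45 counts after IL-1β, or 3.96, 4.90 and 4.18 CPM. Every IL-1β library was above every control, while the controls differed widely among themselves and control replicate 1 lay under the 3-count floor. The log2 fold change was 2.77 (standard error 0.474, 95% interval 1.79 to 3.75, adjusted p = 1.3e-04). Its size rests on the control libraries, since it was 3.63 without control replicate 2 and 2.34 without control replicate 1, and an unmoderated test of each gene alone on log2(CPM + 1) ended the call (adjusted p = 0.052). Of the counts of both ARNT genes, Arnt2 took 1.05%, 6.22% and 2.59% in the controls and 17.1%, 21.0% and 17.4% after IL-1β. The difference in mean share was 15.2 percentage points (exact permutation test, two-sided p = 0.1), and Arnt still held most of the family's counts in every library.

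Among the prolyl hydroxylases, only Egln3 passed the test. Egln3 (chr12:54178981-54203874, minus strand) encodes PHD3, itself a gene that HIF induces in many cells. It was at 3.85, 6.62 and 4.94 CPM in the controls and 11.5, 15.4 and 13.9 CPM after IL-1β. The groups were clearly apart, at means of 5.14 ± 1.40 and 13.6 ± 1.93 CPM (SD, n = 3 per group). The log2 fold change was 1.40 (standard error 0.221, 95% interval 0.94 to 1.86, adjusted p = 4.5e-05), and it stayed between 1.23 and 1.64 with each library left out. The unmoderated test on log2(CPM + 1) ended this call too (adjusted p = 0.071).

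Egln1 (chr8:124908587-124949254, minus strand) encodes PHD2, the main oxygen sensor of most cells. Its levels were 31.7, 26.8 and 33.8 CPM in the controls and 32.8, 32.1 and 31.8 CPM after IL-1β, so all IL-1β values lay inside the control range. The log2 fold change was 0.07 (95% interval -0.17 to 0.31, adjusted p = 0.793), with the sign turned, at -0.017, without control replicate 2. Egln2 (chr7:27158658-27166802, minus strand), which encodes PHD1, was at 44.5, 41.8 and 42.8 CPM against 35.1, 41.2 and 42.4 CPM. IL-1β replicate 1 stood well below the controls, replicate 2 just below and replicate 3 among them, and the log2 fold change was -0.12 (95% interval -0.34 to 0.09, adjusted p = 0.556).

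The composition of the hydroxylase transcripts moved with Egln3. Its share of the PHD counts was 4.81%, 8.81% and 6.06% in the controls and 14.5%, 17.3% and 15.7% after IL-1β, a difference of 9.31 percentage points (exact permutation test, two-sided p = 0.1). Egln3 nonetheless had the fewest counts of the 3 hydroxylase genes in all 6 libraries.

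Vhl and Hif1an, the genes for the recognition subunit and for the asparagine hydroxylase, did not pass the test. Vhl (chr6:113624021-113631633, plus strand) was at 15.4, 13.2 and 11.2 CPM in the controls and 14.8, 17.9 and 20.8 CPM after IL-1β. The ranges overlapped in 1 library of each group, and the log2 fold change was 0.42 (95% interval 0.08 to 0.77, unadjusted p = 0.018, adjusted p = 0.104 from edgeR). Without control replicate 1 the value was 0.54 and passed (adjusted p = 0.034). Hif1an (chr19:44562854-44576274, plus strand) was at 25.1, 24.1 and 26.8 CPM against 27.7, 31.0 and 29.0 CPM. All 3 IL-1β libraries were above all controls, yet the difference was small, at 0.21 on the log2 scale (95% interval -0.03 to 0.45, adjusted p = 0.301).

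**Figure D3:**
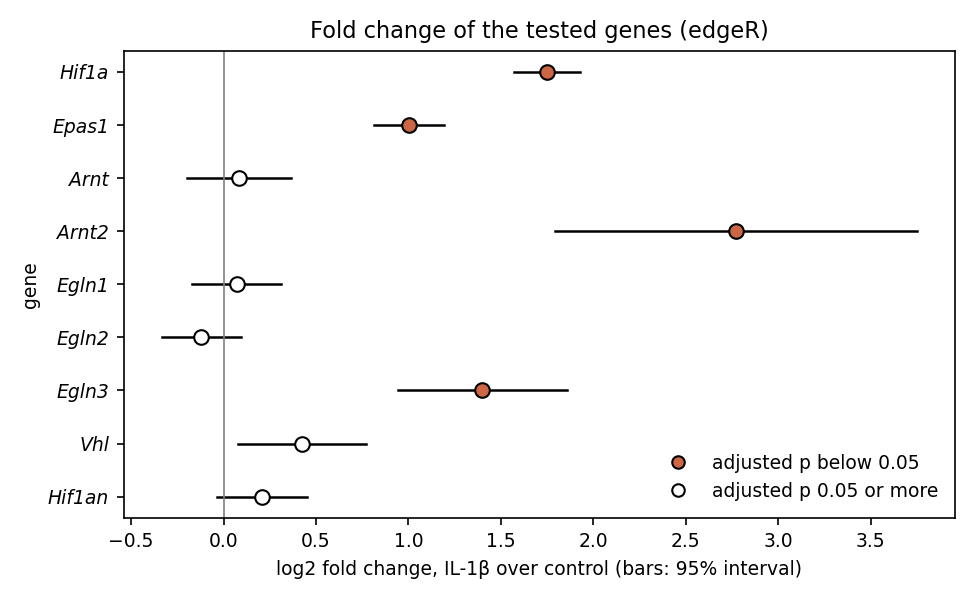
Log2 fold change (IL-1β over control, edgeR) of the 9 tested genes with 95% intervals, filled where the adjusted p was below 0.05. Hif1a, Epas1, Arnt2 and Egln3 are filled, with intervals from 0.81 upward, while the intervals of Arnt, Egln1, Egln2 and Hif1an include 0 and that of Vhl starts at 0.08.

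The order of levels changed accordingly. In control hepatocytes Hif1a was the most abundant transcript of the 10, followed by Egln2 and Epas1, whose ranges overlapped, then Egln1 and Hif1an, whose ranges touched as well. Arnt, Vhl, Egln3, Arnt2 and Hif3a came next, with ranges that did not overlap. Arnt2 in control replicate 1 and Hif3a in every control lay under the 3-count floor, so the order of these last genes is uncertain. After IL-1β Hif1a was still first, Epas1 was second and clear of Egln2, and Egln1 and Hif1an came next without overlap. Arnt, Vhl and Egln3 then formed a run in which neighbours overlapped, as Egln3 had come up to their level, and Arnt2 and Hif3a were again last.

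The balance between the alpha subunits and the genes that act on them was also compared within each library. Alpha subunit counts were 1.34, 1.66 and 1.60 times the summed PHD counts in the controls and 4.51, 4.07 and 3.79 times after IL-1β. This is a rise of 1.43 in the log2 ratio, although Egln3 rose too (exact permutation test, two-sided p = 0.1, n = 3 per group). Against both ARNT genes the ratio went from 5.98, 6.67 and 6.69 to 15.5, 15.4 and 13.9, a log2 rise of 1.21. Against Vhl it went from 6.96, 9.43 and 11.6 to 24.3, 20.2 and 16.02, a log2 rise of 1.12. All 3 treated libraries were above all controls in each ratio (exact permutation test, two-sided p = 0.1 each), and the ratio to Vhl spread most within a group.

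**Figure D4:**
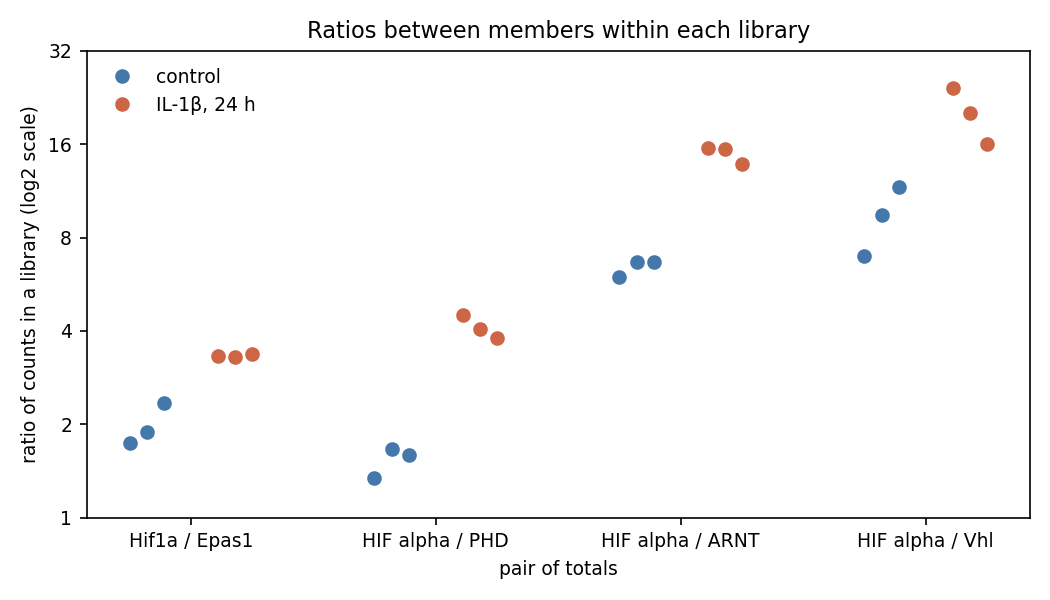
Ratios of raw counts within each library on a log2 axis, with 1 point for each library: Hif1a to Epas1, and the summed alpha subunits to the summed prolyl hydroxylases, to both ARNT genes and to Vhl. In each pair the 3 IL-1β points lie above the 3 control points, as at 3.79 to 4.51 against 1.34 to 1.66 for the hydroxylases.

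Of 46 other genes that act on or with HIF, in 5 lists, 38 were tested, 4 rose and 0 fell, where 6.97% of all tested genes rose and 6.44% fell. The median log2 fold change of the 38 was 0.05, against -0.0018 over all genes tested. Of the 38, 5 were higher and 0 lower at an unadjusted p below 0.05. The share of all tested genes at that unadjusted threshold was not calculated. DESeq2 called 3 of these genes higher and 0 lower, against 732 higher and 639 lower of 13050 genes in the whole table. None of the 6 genes of the VHL ligase passed the test (range -0.25 to 0.21), among them Cul2, the scaffold, at -0.25, and Elob and Eloc, the elongins that hold VHL (Tceb2 and Tceb1 in the table), at 0.04 and 0.21. Elob and Eloc did pass without control replicate 1, at 0.29 for both, and Elob stood at 314 CPM in that library against 199 and 202 CPM in the other controls. The coactivators had 5 tested genes and no call: Ep300 and Crebbp, the histone acetyltransferases that HIF recruits, were at -0.015 and -0.0028, and Cited2, which competes with HIF for them, at 0.03. None of the 14 regulators of alpha subunit stability was called by edgeR (0 at an unadjusted p below 0.05), including the chaperone genes Hsp90aa1 and Hsp90ab1 at -0.018 and 0.013, although the latter was among the most abundant of all these transcripts at a mean of 4207 CPM. The signs of Elob, Cited2 and Hsp90ab1 turned with total-count scaling, to -0.012, -0.026 and -0.041.

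The 4 calls lay among other partners of ARNT and among genes upstream of Hif1a. Ahr, the dioxin receptor, which shares ARNT with HIF, was at 23.4, 31.5 and 27.2 CPM in the controls and 38.1, 38.0 and 38.1 CPM after IL-1β (log2 fold change 0.47, adjusted p = 0.00659). Of the 9 genes in the list of ARNT partners and relatives, 3 were tested, and Arntl and Arntl2, which encode clock factors, did not pass, at 0.55 and 0.12. Stat3, the mediator of IL-6 signalling, rose from 243, 289 and 287 to 344, 362 and 353 CPM (0.37, adjusted p = 4.7e-04). Nfkb1, the p50 precursor gene of NF-κB, was at 34.1, 16.8 and 21.9 CPM against 40.1, 32.9 and 33.7 CPM, with overlapping groups (0.55, adjusted p = 0.0288), and Rela, the p65 gene, was at -0.00026. Rps6kb1, the kinase S6K1 downstream of mTOR, reached 0.25 (adjusted p = 0.0308). Nfkb1 lost its call with DESeq2 (adjusted p = 0.0508) and when any library but control replicate 1 was left out, and Rps6kb1 with upper-quartile or total-count scaling and without control replicate 2 or 3 or IL-1β replicate 2 or 3, so that only 2 calls were left in these 5 lists without any 1 of those 4 libraries, while 6 genes passed without control replicate 1.

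Of 42 textbook HIF target genes, 33 were tested, 13 rose and 1 fell, where 6.97% of all tested genes rose and 6.44% fell. The median log2 fold change of the 33 was 0.28, against -0.0018 over all genes tested. The called targets covered several roles. Adm, the vasodilator adrenomedullin, was at 5.07, 7.43 and 8.06 CPM in the controls and 30.7, 33.5 and 37.8 CPM after IL-1β (log2 fold change 2.31, adjusted p = 6.4e-11). Its lowest IL-1β library was several times its highest control. Pkm, a pyruvate kinase of glycolysis, went from 32.9, 36.7 and 41.9 to 116, 103 and 127 CPM (1.64, adjusted p = 3.5e-12), and Ndrg1, a stress-induced gene, from 80.1, 86.2 and 82.1 to 149.6, 132 and 130.0 CPM (0.73, adjusted p = 1.7e-07).

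Most other targets changed by much less. The abundant glycolytic genes Aldoa and Ldha had log2 fold changes of 0.34 (adjusted p = 0.00126) and 0.18 (adjusted p = 0.156), and Ldha passed without control replicate 1 or IL-1β replicate 2, at 0.23 and 0.26. The 1 target that fell, named after its values were seen, was Hmox1, the haem-degrading enzyme, from 178, 149 and 135 to 123, 121 and 134 CPM (-0.29, adjusted p = 0.0258), and this count was 0 without IL-1β replicate 1 or 2. Epo, the HIF2α target erythropoietin, was listed at 0 in all 6 libraries. Several listed targets, Hmox1 among them, are also known to answer to inflammatory signals, and their part in these counts was not tested.

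**Figure D5:**
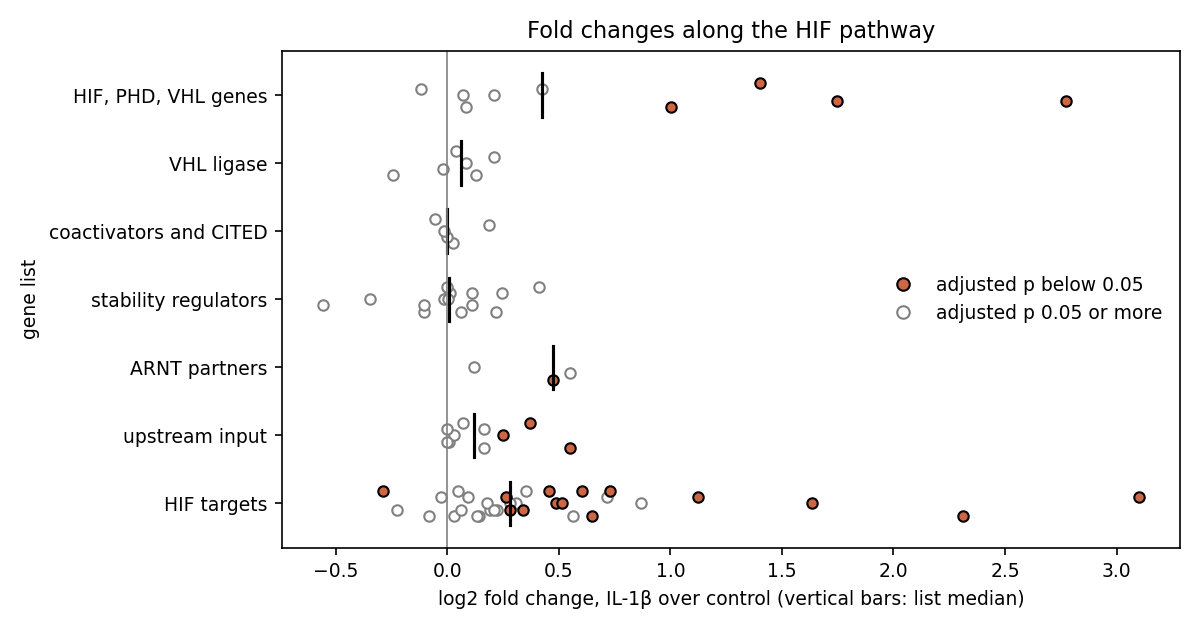
Log2 fold change (IL-1β over control, edgeR) of each tested gene in the HIF, PHD and VHL set, 5 lists of genes acting with it and the HIF target list, filled where the adjusted p was below 0.05, with a vertical bar at each list's median. Called genes lie in 4 of the 7 rows, 4 of them among the HIF, PHD and VHL genes, 1 among ARNT partners, 3 among upstream genes and 14 among the targets.

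Across the 6 libraries, 5 genes followed Hif1a most closely among the 7979 with a mean of at least 10 CPM. They were Ccrn4l, Lcp1, Cxcl5, Sod2 and Rab32, each with a Pearson r of 0.999 on log2(CPM + 1). Such values rest on 6 points that share 1 large step between the groups, and 323 of the 7979 genes reached 0.95. The steps of the 5 genes were of unlike size, with log2 fold changes of 1.78 for Ccrn4l, 1.22 for Lcp1, 6.95 for Cxcl5, 1.43 for Sod2 and 1.505 for Rab32.

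Shared sequence was looked for in the last 500 bases of the annotated transcripts, where QuantSeq reads fall. None of the 426 windows of 75 nt of any of the 10 genes occurred in the spliced transcripts of another gene, read along the same strand. On the genome, the end of Hif1a lies within the spans of the annotated genes Gm49321 on its own strand and Gm15283 on the opposite one, and that of Egln2 overlaps Cyp2t4 on the opposite strand, which had 0 to 10 counts in a library. Gm49321 shares the strand of Hif1a, so strand alone could not separate their reads. For Gm15283 and Cyp2t4 it depends on the strand setting of the counting, which is not given in the sources used here. How many reads of these genes were counted under Hif1a or Egln2 is not known.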

How the data were processed

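RNA from 6 samples of primary mouse hepatocytes (3 control, 3 IL-1β) was sequenced as QuantSeq single-end reads of 75 nt. Per the labels, the authors aligned reads with Bowtie2 on mm10 (GRCm38) and normalized with edgeR. The counting tool, its strand setting and its annotation release are not given in the sources used here. The deposited raw read counts of 23282 genes, which no normalization had changed, were used. The table also holds the authors' normalized values, fold changes and p-values, which were not used.

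Differences were tested with edgeR 4.0.16 in R 4.3.3 (filterByExpr, TMM, quasi-likelihood test, Benjamini-Hochberg over the 11657 genes kept, adjusted p below 0.05), a procedure tested on simulated data. CPM was calculated from the summed counts of the genes kept in each library, scaled by TMM, and n is 3 per group. Shares, ratios and exact permutation tests were computed in Python 3.11.15 with scipy 1.17.1. Alternatives were upper-quartile and total-count scaling, DESeq2 1.42.0, no filter, at least 10 counts in every library, limma 3.58.1 and Student's test on log2(CPM + 1), the replicate number as a block, omission of the ribosomal Rn45s (11.7% to 14.2% of counts), stricter thresholds, and each library left out. The Arnt2 share and the ratios of the alpha subunits to the ARNT genes and to Vhl were not planned. They were added after seeing the data, as was leaving out libraries for them.

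The genes and lists were chosen with earlier results of these data known. All 10 genes of the set are named. Of each other list, at most 4 genes with the smallest adjusted p and 2 with the highest mean CPM are named, of marker lists at most 4 with the highest CPM, and 5 genes by their correlation with Hif1a, apart from exceptions stated in place. A result under this rule is left out here. Sequences are RefSeq entries of GRCm38.p6, matched by symbol for 9 of the 10 genes; Epas1 is named only. Positions are those of the deposited table.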

Additional observations from a re-analysis of the deposited data

How the results depend on the processing

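Hif1a and Epas1 kept their calls under every alternative run and with each library left out, at log2 fold changes of 1.64 to 1.84 and 0.95 to 1.06. Arnt2 and Egln3 kept theirs in all but the unmoderated test (Student's) of each gene alone, and Arnt2 could not be fitted with at least 10 counts in every library. This test called 547 genes against 1563, 2 of the set against 4, 0 genes of the 5 HIF lists against 4, and among the targets 5 higher against 13 and 0 lower against 1. An adjusted p below 0.01 left 996 genes, and an added fold change over 1.5 left 769. Total-count scaling called 2 targets lower and made 39.64% of all calls higher, against 51.95% with TMM. With Hif3a and Egln2 left out of the totals, the log2 ratio of alpha subunits to hydroxylases rose by 1.19 in place of 1.43. With each library left out, 1131 to 1596 genes were called, 2 to 6 genes of the HIF lists were higher, and 0 to 1 target was lower. The causes were not tested.

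Single genes were followed only where named, the marker genes left out. Among these the sign turned in 12, all uncalled and with log2 fold changes of at most 0.12 in size. With upper-quartile and total-count scaling these were Cited2 (-0.0022 and -0.026), Hsp90ab1 (-0.016 and -0.041) and Eif4ebp1 (-0.024 and -0.049), with total-count scaling alone Elob (Tceb2, -0.012), and with DESeq2 and the 10-count minimum Rela (0.0011 and 0.0022). With libraries left out, the ranges crossing 0 were those of Egln1 (-0.017 to 0.14), Nedd8 (-0.068 to 0.026), Tceb2 (-0.071 to 0.29), Ncoa2 (-0.23 to 0.042), Cited2 (-0.026 to 0.13), Ep300 (-0.059 to 0.017), Crebbp (-0.063 to 0.068), Hsp90ab1 (-0.026 to 0.038), Hsp90aa1 (-0.040 to 0.022), Arntl2 (-0.042 to 0.24), Eif4ebp1 (-0.024 to 0.053) and Rela (-0.038 to 0.045).

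Libraries that share a replicate number did not deviate together (correlations of 0.075, 0.027 and -0.005 after group means were removed), and were not taken as pairs. With the replicate number as a block, 1671 genes were called, and the counts of called genes in the set (4 higher) and in the HIF and target lists did not change. Depth limits the lowest genes most: Arnt2 rests on 20 control counts in all, and a change in Hif3a was not detectable at 3 counts a library.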
